A study of Homo sapiens with 4 samples.

Results

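ANGPTL4, the PPAR receptors PPARA, PPARD and PPARG, their coactivator PPARGC1A, and 5 PPAR target genes of fatty acid handling (PDK4, PLIN2, CPT1A, ACADVL and HADHA) were followed in RCC4 cells after silencing of PML. These are 10 of the 59050 genes in the count table, and all 10 passed the filter on low counts that left 16516 genes to test. ANGPTL4 was chosen by its higher level in shPML in these same libraries, so its values are given as a description without a test. The other 9 genes were chosen by function, to ask whether the difference of ANGPTL4 came with differences of the PPARs and of further PPAR targets.

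PPARs are nuclear receptors that bind DNA as heterodimers with a retinoid X receptor (RXR) and are switched on by fatty acids and their derivatives. PPARA and PPARD are known above all for driving fatty acid oxidation, and PPARG for lipid storage in adipocytes, while PPARGC1A (PGC-1α) boosts their activity on oxidative genes. ANGPTL4 is a secreted inhibitor of lipoprotein lipase and a classic target of all PPARs, but it is also induced by hypoxia-inducible factors (HIF), by glucocorticoids and by TGF-beta, and clear cell renal carcinoma is known for stored lipid droplets and constitutive HIF activity.

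RCC4 is an established human clear cell renal cell carcinoma (ccRCC) line. The cells were populations selected in bulk after lentiviral infection, and they carried either 1 hairpin against PML (shPML#1, written shPML) or a scrambled hairpin (shCtrl), both induced by doxycycline. Cells of both groups received doxycycline at 100 ng/ml for 96 h, so the drug is shared by the controls. The study describes 2 experiments with independent infections, and each gave 1 shCtrl and 1 shPML library, numbered here as replicates 1 and 2. Only 1 hairpin against PML was sequenced, and its effects on other transcripts cannot be told apart from effects of PML silencing.

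Between 27781193 and 69870617 reads were counted per library. PML, the targeted gene, was at 93.1 and 136 CPM (counts scaled to library size after TMM normalization) in shCtrl replicates 1 and 2 and at 54.9 and 87.6 CPM in shPML replicates 1 and 2, with the shPML library below its control in each experiment and no overlap of the groups (adjusted p = 0.32 from edgeR without and 4.2e-07 with the experiment as a block). The renal lineage factor PAX8 was at 302 to 427 CPM in all libraries. Of 5 adipocyte markers, ADIPOQ, LEP and CIDEC were at 0 in all libraries. PLIN1 had 1 and 1 counted reads in shCtrl replicates 1 and 2 and 7 and 6 in shPML. FABP4 had 0 and 0 in shCtrl and 0 and 5 in shPML. The library of shPML replicate 2 stood apart by myeloid transcripts. PTPRC, the pan-leukocyte phosphatase, was at 0 CPM in both shCtrl libraries, at 0.098 in shPML replicate 1 and at 12.6 in shPML replicate 2, and CD14, a monocyte receptor, was at 0.037, 0.11, 0.042 and 42.8 CPM in the same order. ITGAM was at 1.07, 1.25, 2.40 and 5.601 CPM, while CD3E, which defines T cells, was at 0 in all libraries. Summed over these 4 leukocyte markers the level was 1.11 and 1.36 CPM in shCtrl and 2.54 and 61.0 CPM in shPML. Some hepatocyte markers were found in replicate 1 of both groups. ALB was at 3.18 CPM in shCtrl and 3.78 CPM in shPML replicate 1, and at 0 in both replicate 2 libraries. APOA1 was at 1.83 and 1.69 CPM in replicate 1 and at 0 and 0.036 CPM in replicate 2. SERPINA1 was higher in replicate 2, at 15.9 and 20.4 CPM against 7.85 and 4.62 CPM in replicate 1. The source of these transcripts was not tested, and ratios are given within each experiment for the results that turn on shPML replicate 2. In bulk RNA, more cells of a type and more RNA per cell cannot be told apart.

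The sequences are shown because PPAR and RXR bind a direct repeat of the 6-base unit AGGTCA with 1 base between the copies, called DR1, with the letters AGGTCANAGGTCA. The hg38 sequence from 5000 bases before to 10000 bases after each gene's start was searched on both strands. An exact DR1 was found in 0 of the 10 genes and in 0.914% of all genes tested, and a match with at most 1 mismatch in 3 of the 10 genes (PPARGC1A, PDK4 and CPT1A), against 13.7% of all genes tested. The closest match of ANGPTL4 had 2 mismatches and lay 6884 bases after its start, in intron 4 of the canonical Gencode transcript, on the minus strand at chr19:8371033-8371045. Matches with up to 2 mismatches occur in 76.6% of all genes tested. In the sequences, read 5′ to 3′ on the strand of the match, capitals mark the matched bases and 10 flanking bases on each side are in lower case.
ANGPTL4 (2 mismatches, intron 4): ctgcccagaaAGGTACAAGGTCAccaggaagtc
CPT1A (1 mismatch, intron 1): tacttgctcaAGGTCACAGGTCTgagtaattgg
PDK4 (1 mismatch, before the start): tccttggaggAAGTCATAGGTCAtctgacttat
PPARGC1A (1 mismatch, before the start): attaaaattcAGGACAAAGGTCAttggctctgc

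The CPT1A match lies 6095 bases after the start of the gene at chr11:68835830-68835842, and those of PDK4 and PPARGC1A lie at -4719 and -1856 bases, where negative positions are before the start. These matches are letters in a window, and binding was not measured here.

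The 250 bases before the RefSeq starts of ANGPTL4 and PLIN2 are shown next, since these are the members with the largest differences in CPM in shPML. Capitals mark ACGTG, the core that HIF binds and which is also part of other motifs. They also mark TATAAA, a form of the motif that places the transcription start, and the motif GGGCGG that Sp1 binds. Each was searched on either strand, so that motifs of the opposite strand appear as their reverse complement. In 1 place of the PLIN2 sequence the ACGTG of each strand overlap.
ANGPTL4 promoter (GRCh38.p14, chr19:8363905-8364154, plus strand): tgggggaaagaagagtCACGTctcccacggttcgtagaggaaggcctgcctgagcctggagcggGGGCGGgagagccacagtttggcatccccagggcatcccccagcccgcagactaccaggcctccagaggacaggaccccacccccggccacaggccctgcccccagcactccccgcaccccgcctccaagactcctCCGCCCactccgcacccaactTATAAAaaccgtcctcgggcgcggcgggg
PLIN2 promoter (GRCh38.p14, chr9:19127493-19127742, minus strand): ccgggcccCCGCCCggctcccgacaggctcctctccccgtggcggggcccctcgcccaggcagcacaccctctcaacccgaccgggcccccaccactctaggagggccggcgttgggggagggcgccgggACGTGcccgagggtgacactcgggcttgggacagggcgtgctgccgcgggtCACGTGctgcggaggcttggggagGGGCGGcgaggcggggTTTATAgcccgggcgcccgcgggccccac

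Of 27305 such promoters, 18.7% hold ACGTG, 11.1% hold TATAAA and 42.3% hold GGGCGG. Of the 10 genes, 4 hold ACGTG (ANGPTL4, PPARG, PPARGC1A and PLIN2). The RefSeq promoter of PPARGC1A (chr4:24472906-24473155) lies far outside the gene as counted. The DR1 search used another start for PPARGC1A, at 23890077. The unit AGGTCA is in 12.1% of the promoters and in 1 of the 10 genes, PPARG.

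ANGPTL4 (chromosome 19 of GRCh38, 8364155 to 8374370, plus strand) held 740 and 228 counted reads in shCtrl replicates 1 and 2 and 13157 and 5937 in shPML replicates 1 and 2. In CPM these are 13.7 and 6.33 in shCtrl and 184 and 216 in shPML, with means of 10.0 ± 5.19 and 200 ± 22.9 (SD, n = 2 each). Both shPML libraries lay far above both shCtrl libraries, and the controls differed more from each other in proportion than the shPML libraries did. The level was 13.4 times that of shCtrl in replicate 1 and 34.1 times in replicate 2. In shPML replicate 1, PTPRC and CD14 were at 0.098 and 0.042 CPM, while ITGAM was at 2.40 CPM, 2.24 times its level in shCtrl replicate 1, and the myeloid receptor CD33 was at 0.43 CPM against 0.037 CPM. The part of the leukocyte markers in the difference of ANGPTL4 was not tested. The fitted log2 fold change was 4.31 without and 4.35 with the experiment as a block, and it ranged from 3.86 to 4.99 when each library was left out in turn.

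**Figure D1:**
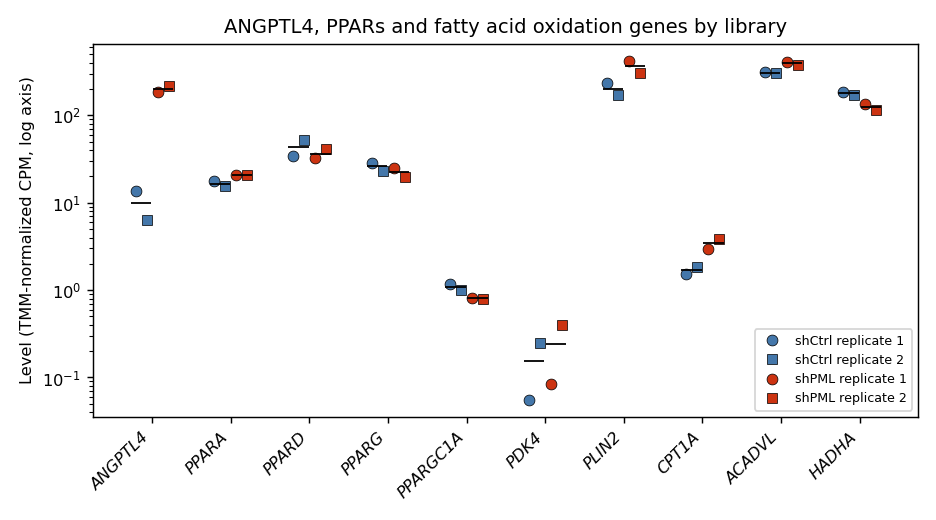
Level of each of the 10 genes in TMM-normalized CPM on a log axis, with shCtrl in blue and shPML in red, circles for replicate 1 and squares for replicate 2, and bars at the mean of each group. ANGPTL4 is the gene with the widest gap, from 6.33 to 13.7 CPM in shCtrl to 184 to 216 CPM in shPML, while PPARD, PPARG and PDK4 overlap between groups.

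Read per length, as CPM per 1000 bases of exon, the order of the genes changed around ANGPTL4. In shCtrl it ranked 6 of the 10, at 3.38 to 7.30, below PPARG at 6.50 to 8.03 with overlapping ranges and above PPARA at 1.54 to 1.75. In shPML it ranked 3 of the 10, at 98.0 to 115, below ACADVL at 156 to 171 and above HADHA at 38.2 to 43.96. ACADVL led in shCtrl, at 125 to 129, followed by PLIN2 at 76.5 to 105 and HADHA at 56.5 to 61.6, and these ranges did not overlap. In shPML, PLIN2 at 138 to 189 and ACADVL overlapped. CPT1A at 0.26 to 0.32, PPARGC1A at 0.11 to 0.13 and PDK4 at 0.015 to 0.069 were the lowest in shCtrl. PDK4 and PPARGC1A overlapped in shPML.

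Of the 9 genes other than ANGPTL4, PLIN2 and CPT1A rose and HADHA fell in shPML in the fit with the experiment as a block, while the PPARs, PPARGC1A, PDK4 and ACADVL did not pass. Without the block, 0 of the 9 passed in edgeR's quasi-likelihood test, where a call needs a log2 fold change beyond 0.5 and an adjusted p below 0.05, and 0.0787% of the 16516 genes tested were called higher and 0.333% lower. With p under 0.05 before adjustment, 2 of the 9 were higher (PLIN2 and CPT1A) and 1 was lower (HADHA), against 7.8% and 10.1% of all genes. With the block, 2 were called higher and 1 lower, against 8.57% and 10.5% of all genes. DESeq2 called 1 higher (PLIN2) and 0 lower without a block, against 3.49% and 5.44% of all genes, and 1 higher (PLIN2) and 1 lower (HADHA) with it, against 6.71% and 8.39%. Both shPML libraries lay above both shCtrl libraries in 4 of the 9 genes and below in 2, against 23.1% and 24.9% of all genes. These shares come from 9 genes, and no test of the set was made.

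PPARA (chromosome 22, 46150596 to 46243756, plus strand), the receptor that leads fatty acid oxidation in liver and kidney, was at 17.6 and 15.5 CPM in shCtrl replicates 1 and 2 and at 20.98 and 20.6 CPM in shPML replicates 1 and 2. Both shPML libraries lay above both shCtrl libraries. Its log2 fold change was 0.33 (SE 0.17, adjusted p = 0.40 from edgeR, and 0.060 with the block), short of both thresholds. PPARD (chromosome 6, 35342558 to 35428191, plus strand), the widely expressed PPAR, was at 34.6 and 51.8 CPM in shCtrl and at 32.2 and 40.9 CPM in shPML. The groups overlapped, and replicate 2 was above replicate 1 in each group. Its log2 fold change was -0.24 (SE 0.25, adjusted p = 0.71 from edgeR, and 0.17 with the block), and it was 0.07 without shCtrl replicate 2. PPARG (chromosome 3, 12287368 to 12434356, plus strand), the adipocyte regulator, was at 28.9 and 23.4 CPM in shCtrl and at 25.1 and 19.5 CPM in shPML, with overlapping groups. Its log2 fold change was -0.22 (SE 0.21, adjusted p = 0.67 from edgeR, and 0.19 with the block).

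PPARGC1A (chromosome 4, 23792021 to 23890077, minus strand) was near the lower end of what these libraries measure, with 64 and 36 counted reads in shCtrl and 59 and 22 in shPML. These are 1.18 and 1.00 CPM in shCtrl and 0.82 and 0.80 CPM in shPML, with both shPML libraries lower. Its log2 fold change of -0.43 (SE 0.47, adjusted p = 0.73 from edgeR, and 0.60 with the block) was smaller than its SE.

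Of the 20 genes listed as PPARs, RXRs and their cofactors, NRIP1 alone passed, in the fits with the block. Of 19 tested, 0 were called without the block by edgeR or by DESeq2. With p under 0.05 before adjustment, 1 was higher and 1 lower in edgeR, against 7.8% and 10.1% of all genes. With the block, 1 was called higher and 0 lower in either tool. The shares of all genes there were 8.57% and 10.5% in edgeR and 6.71% and 8.39% in DESeq2. The gene called higher was NRIP1 (RIP140), a corepressor of nuclear receptors in metabolic tissues. NRIP1 was at 78.8 and 49.7 CPM in shCtrl and at 114 and 99.8 CPM in shPML (log2 fold change 0.76 with the block, SE 0.11, adjusted p = 1.9e-07 from edgeR). The median log2 fold change of the list was 0.01, the same as the 0.01 of all genes tested. RXRA had a log2 fold change of -0.38 with the block (adjusted p = 0.010 from edgeR), short of the fold threshold, and RXRB of 0.13 (adjusted p = 0.44). RXRG had 0 counted reads in all libraries. The related coactivators PPARGC1B and PPRC1 had log2 fold changes of 0.02 and -0.21 with the block (adjusted p = 0.93 and 0.12 from edgeR).

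PLIN2 (chromosome 9, 19115761 to 19127492, minus strand), which coats lipid droplets and is a target of PPARs and of HIF2, was at 234 and 170 CPM in shCtrl replicates 1 and 2 and at 420 and 308 CPM in shPML replicates 1 and 2. Both shPML libraries lay above both shCtrl libraries. The level was 1.80 times that of shCtrl in replicate 1 and 1.81 times in replicate 2, so the ratios of the experiments were nearly equal. The log2 fold change was 0.85 (SE 0.24, adjusted p = 0.17 from edgeR), and with the block it was 0.85 (SE 0.10, adjusted p = 1.5e-10), past both thresholds.

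**Figure D2:**
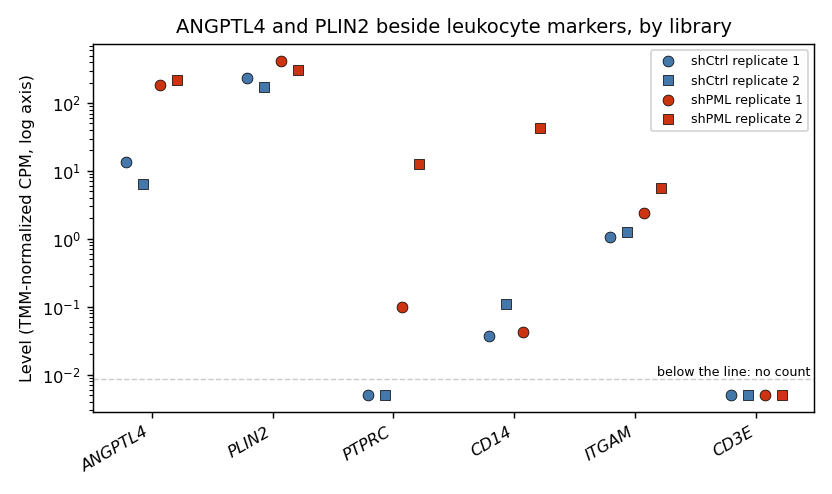
Levels of ANGPTL4 and PLIN2 beside the 4 leukocyte markers in each library, in TMM-normalized CPM on a log axis, with points under the dashed line standing for 0 counts. ANGPTL4 and PLIN2 are higher in both shPML libraries, whereas PTPRC at 12.6 CPM and CD14 at 42.8 CPM stand out in shPML replicate 2 only.

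CPT1A (chromosome 11, 68754620 to 68841931, minus strand), the enzyme that commits long-chain fatty acids to entry into mitochondria, was at a low level, with 82 and 67 counted reads in shCtrl and 214 and 106 in shPML. These are 1.51 and 1.86 CPM in shCtrl and 2.98 and 3.86 CPM in shPML, and the groups did not overlap. The level was 1.97 times that of shCtrl in replicate 1 and 2.07 times in replicate 2. The log2 fold change was 1.02 (SE 0.35, adjusted p = 0.23 from edgeR) and 1.01 with the block (SE 0.35, adjusted p = 0.023). DESeq2 did not call CPT1A with or without the block (adjusted p = 0.10 and 0.13).

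PDK4 (chromosome 7, 95583499 to 95596516, minus strand), the kinase that shuts off pyruvate dehydrogenase in fasting and is among the most responsive PPAR targets, had 3 and 9 counted reads in shCtrl and 6 and 11 in shPML. These are 0.055 and 0.25 CPM in shCtrl and 0.084 and 0.40 CPM in shPML, with overlapping groups. Replicate 2 was above replicate 1 in each group. Its log2 fold change of 0.61 (SE 1.24, adjusted p = 0.87 from edgeR, and 0.74 with the block) was smaller than its error, and it was -0.09 without shCtrl replicate 1 and -0.80 without shPML replicate 2. A change of PDK4 was not detectable at this depth.

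ACADVL (chromosome 17, 7217125 to 7225266, plus strand), the very long-chain acyl-CoA dehydrogenase of the inner mitochondrial membrane, was at 312 and 302 CPM in shCtrl and at 412 and 375 CPM in shPML. Both shPML libraries lay above both shCtrl libraries. For ACADVL the log2 fold change was 0.36 (SE 0.15, adjusted p = 0.30 from edgeR), and with the block 0.36 (SE 0.10, adjusted p = 0.0024), which is short of the fold threshold of 0.5. ACADVL shares 49 bases of exon (2.03% of its own) with DLG4 on the opposite strand, a gene with 47 to 202 counted reads per library.

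HADHA (chromosome 2, 26190635 to 26244632, minus strand), the alpha subunit of the mitochondrial trifunctional protein that carries out the later steps of long-chain oxidation, went the other way. It was at 188 and 172 CPM in shCtrl and at 134 and 116 CPM in shPML, with both shPML libraries lower. The level was 0.71 times that of shCtrl in replicate 1 and 0.68 times in replicate 2. The log2 fold change was -0.52 (SE 0.16, adjusted p = 0.19 from edgeR), and -0.52 with the block (SE 0.10, adjusted p = 3.1e-05), just past the fold threshold.

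HADHB, the beta subunit of the same complex and not among the 10 genes, showed a larger difference. It was at 124 and 107 CPM in shCtrl and at 40.4 and 29.5 CPM in shPML. Its log2 fold change was -1.72 (SE 0.21, adjusted p = 0.052 from edgeR), and -1.73 with the block (SE 0.12, adjusted p = 5.2e-19). Per exon length, the ratio of HADHB to HADHA was 0.90 and 0.85 in shCtrl and 0.41 and 0.35 in shPML, so that the subunits' mRNAs differed in their ratio in both experiments. The genes lie head to head on chromosome 2, with RefSeq starts 307 bases apart on opposite strands.

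The wider set of PPAR targets was read in the same way. Of 60 PPAR target genes listed, 40 passed the filter on low counts. ANGPTL4, on which the set was selected, is left out of the counts and the median of this list. Of the other 39, edgeR called 0 without the block. With p under 0.05 before adjustment, 8 were higher and 5 lower, against 7.8% and 10.1% of all genes. DESeq2 called 4 higher and 2 lower, against 3.49% and 5.44% of all genes. With the block, 10 were called higher and 4 lower, which are to be read against the 8.57% and 10.5% of all genes. The median log2 fold change of these 39 was 0.16, against 0.01 for all genes tested, and it was 0.21 within replicate 1 and 0.03 within replicate 2.

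**Figure D3:**
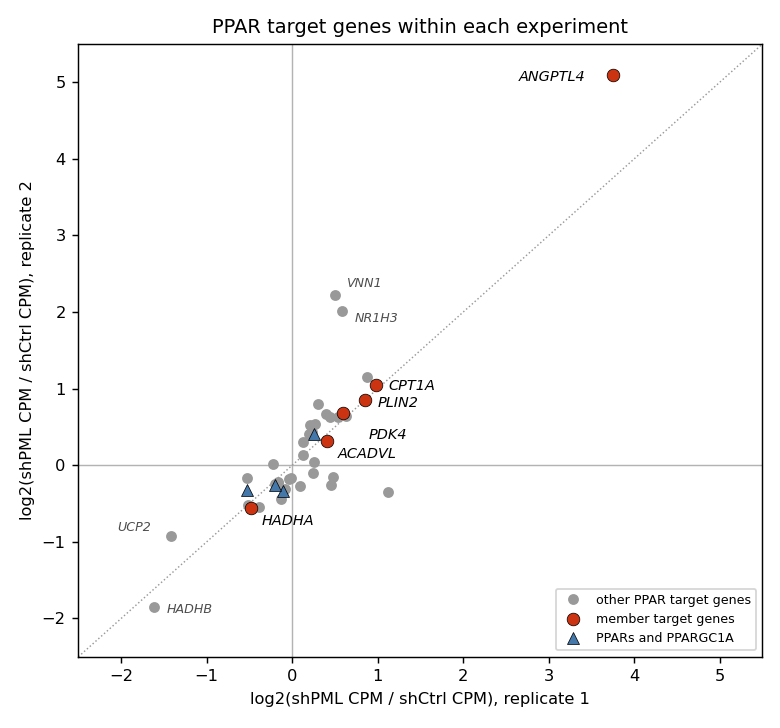
Log2 ratio of shPML to shCtrl CPM in replicate 1 (horizontal) against replicate 2 (vertical) for the PPAR target genes tested and for the PPARs with PPARGC1A. The dotted line marks equal ratios. ANGPTL4 lies alone at 3.75 and 5.09, PLIN2 and CPT1A lie near the line between 0.85 and 1.05, and HADHB and UCP2 lie on the negative side in both experiments.

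Besides the members, VNN1 and NR1H3 had the largest rises among the PPAR targets called with the block. VNN1, a pantetheinase, was at 0.87 and 0.53 CPM in shCtrl and at 1.23 and 2.47 CPM in shPML (log2 fold change 1.31 with the block, SE 0.51, adjusted p = 0.043 from edgeR). VNN1 had 47 and 19 counted reads in shCtrl and 88 and 68 in shPML. DESeq2 did not call VNN1 with or without the block (adjusted p = 0.17 and 0.23). NR1H3 (LXRα), the oxysterol receptor, was at 5.10 and 3.36 CPM in shCtrl and at 7.63 and 13.5 CPM in shPML (log2 fold change 1.26 with the block, SE 0.23, adjusted p = 1.5e-05 from edgeR). The log2 ratios were 0.50 and 0.58 in replicate 1 and 2.23 and 2.01 in replicate 2, for VNN1 and NR1H3, and the larger ones fall in the experiment whose shPML library held PTPRC and CD14 at 12.6 and 42.8 CPM. The part of those transcripts in these rises was not tested. SCD, also on the list, was at 340 and 283 CPM in shCtrl and at 621 and 628 CPM in shPML. Its log2 fold change was 1.01 with the block (SE 0.10, adjusted p = 4.2e-13 from edgeR). The log2 ratios of SCD were 0.87 in replicate 1 and 1.15 in replicate 2. UCP2, an uncoupling protein of the inner mitochondrial membrane, fell with the block. It was at 94.4 and 73.8 CPM in shCtrl and at 35.4 and 38.7 CPM in shPML (log2 fold change -1.18, SE 0.12, adjusted p = 5.0e-12 from edgeR).

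Some well-known PPAR targets of adipose tissue were at or near 0 in most libraries. CD36, a fatty acid transporter, had 0 and 5 counted reads in shCtrl replicates 1 and 2 and 1 and 10 in shPML replicates 1 and 2. FABP4, a fatty acid binding protein, had 0 and 0 reads in shCtrl and 0 and 5 in shPML. G0S2, an inhibitor of adipose triglyceride lipase, had 1 and 0 reads in shCtrl and 0 and 168 in shPML, so that it stood at 6.11 CPM only in shPML replicate 2, the library with PTPRC and CD14 at 12.6 and 42.8 CPM. These genes did not pass the filter and were not compared.

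Mitochondrial fatty acid oxidation genes moved in both directions in the fit with the block. Of the 25 genes listed, 23 were tested. Without the block, 0 were called by edgeR. With p under 0.05 before adjustment, 3 were higher and 3 lower, against 7.8% and 10.1% of all genes. DESeq2 called 0 higher and 2 lower, against 3.49% and 5.44%. With the block, 4 were called higher and 3 lower by edgeR, against 8.57% and 10.5% of all genes. DESeq2 with the block called 2 higher and 3 lower, against 6.71% and 8.39%. The 3 called lower by edgeR with the block were HADHB, ECHS1 and HADHA, which all act on the chain after the first dehydrogenation. HADH, ACAA2 and HSD17B10, which also act after it, were not called. Their log2 fold changes with the block were -0.08, -0.08 and -0.29 (adjusted p = 0.72, 0.66 and 0.041 from edgeR). ECHS1, the short-chain enoyl-CoA hydratase, fell from 156 and 141 CPM in shCtrl to 59.3 and 48.0 CPM in shPML (log2 fold change -1.47 with the block, SE 0.11, adjusted p = 3.3e-17 from edgeR, and 0.052 without it).

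The 3 largest rises of this list were those of ACAD11, CPT1A and ETFB. ETFB, a subunit of the flavoprotein that takes electrons from the acyl-CoA dehydrogenases, was at 11.5 and 13.2 CPM in shCtrl and at 18.97 and 19.7 CPM in shPML (log2 fold change 0.65 with the block, adjusted p = 0.00027 from edgeR). ACAD11, an acyl-CoA dehydrogenase, was at 1.15 and 0.25 CPM in shCtrl and at 1.56 and 1.82 CPM in shPML (log2 fold change 1.46 with the block, adjusted p = 0.031 from edgeR). Its value is uncertain, since reads of overlapping genes may have been split. ACAD11 had 62 and 9 counted reads in shCtrl and 112 and 50 in shPML. Its log2 ratios were 0.45 in replicate 1 and 2.86 in replicate 2. DESeq2 with the block did not call it (adjusted p = 0.13). CPT2, the inner membrane partner of CPT1A, was at 32.7 and 33.0 CPM in shCtrl and at 35.7 and 36.2 CPM in shPML (log2 fold change 0.13 with the block, adjusted p = 0.47 from edgeR). CPT1B, the muscle form, was at 0.50 to 1.31 CPM with overlapping groups, and CPT1C had 0 to 13 counted reads and was not tested. The median of the list was 0.08, with 0.10 within replicate 1 and -0.15 within replicate 2.

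**Figure D4:**
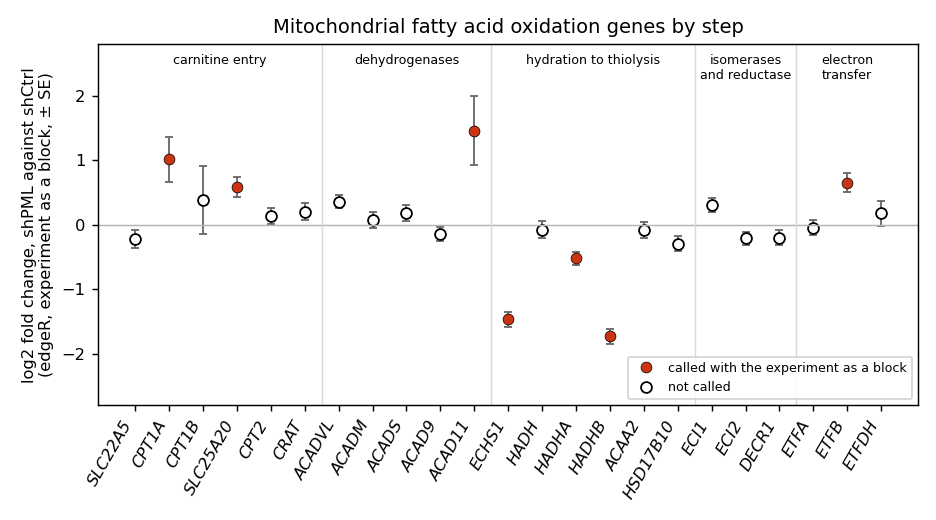
Log2 fold change of shPML against shCtrl, with the experiment as a block, for the 23 mitochondrial fatty acid oxidation genes tested, ordered by step from carnitine entry to electron transfer, with bars of 1 SE. Filled points passed both thresholds. HADHB at -1.73 and ECHS1 at -1.47 are the lowest, and CPT1A at 1.01 and ACAD11 at 1.46 are the highest.

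Peroxisomal oxidation, which shortens very long chains and is another known output of PPARA, was represented by 16 tested genes of 18. Without the block edgeR called 0 of them. With p under 0.05 before adjustment, 1 was higher and 3 lower, against 7.8% and 10.1% of all genes. DESeq2 called 0 higher and 2 lower, against 3.49% and 5.44% of all genes. With the block, 1 was called higher and 3 lower, against 8.57% and 10.5% of all genes. PECR, the trans-2-enoyl-CoA reductase, fell from 15.0 and 14.8 CPM in shCtrl to 6.57 and 6.73 CPM in shPML (log2 fold change -1.16 with the block, adjusted p = 1.3e-07 from edgeR). CROT, the carnitine octanoyltransferase, had a log2 fold change of -1.03 and EHHADH, the bifunctional enzyme, of -0.52 with the block, while DECR2, a dienoyl-CoA reductase, had 0.73. The median log2 fold change of the tested genes was 0.11.

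Among the lipid droplet genes, PLIN2 rose and ABHD5 fell. ABHD5 (CGI-58), the coactivator of adipose triglyceride lipase, was at 66.2 and 72.9 CPM in shCtrl and at 15.9 and 15.2 CPM in shPML. The groups were far apart, at a log2 fold change of -2.16 (SE 0.16, adjusted p = 0.048 from edgeR without the block). It was the 1 gene of the 17 tested of 24 on this list that was called without the block, where 0.333% of all genes were called lower. The adjusted p of ABHD5 from edgeR was 1.6e-21 with the block. The smallest adjusted p of any gene without the block was 0.048, and with RLE in place of TMM normalization it was 0.050, so neither ABHD5 nor any other gene was called there. PNPLA3 also fell with the block (log2 fold change -1.23, adjusted p = 1.1e-08 from edgeR), and PLIN2 was the only gene called higher. These calls, 1 higher and 2 lower of the 17, stand against 8.57% and 10.5% of all genes. At p under 0.05 before adjustment without the block, edgeR had 1 higher and 2 lower, against 7.8% and 10.1%. DESeq2 without the block called 1 higher and 2 lower, against 3.49% and 5.44%. PLIN3, the perilipin of most tissues, was at 242 and 238 CPM in shCtrl and at 264 and 302 CPM in shPML (log2 fold change 0.23 with the block, adjusted p = 0.067 from edgeR). PLIN1, PLIN4 and PLIN5 had 0 to 7 counted reads per library.

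The lipase that ANGPTL4 inhibits was at the floor of detection. LPL had 0 reads in both shCtrl libraries, 2 in shPML replicate 1 and 4 in shPML replicate 2. Of the 25 genes of fatty acid uptake, binding and activation, 13 were tested, and 0 were called without the block by edgeR. With p under 0.05 before adjustment, 3 were higher and 2 lower, against 7.8% and 10.1% of all genes. DESeq2 called 1 higher and 0 lower, against 3.49% and 5.44% of all genes. With the block, 4 were called higher and 1 lower, against 8.57% and 10.5% of all genes. VLDLR, a receptor for triglyceride-rich lipoproteins, rose from 110 and 88.3 CPM in shCtrl to 183 and 150 CPM in shPML (log2 fold change 0.75 with the block, adjusted p = 2.7e-08 from edgeR). LMF1, the lipase maturation factor, had 0.67 and the fatty acid transporter SLC27A1 had 0.55, whereas hepatic lipase LIPC had -0.87 with the block.

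ANGPTL4 was the only gene of its family above 1 CPM in any library. Of the 11 angiopoietin and angiopoietin-like genes, 3 were tested and 5 had no read in any library. ANGPTL6 had 2 and 0 reads in shCtrl and 20 and 14 in shPML, and it shares exon bases with C19orf66 on the opposite strand. ANGPT4 was at 0.68 and 0.67 CPM in shCtrl and at 0.63 and 0.40 CPM in shPML.

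The relatives of PDK4 were better measured than PDK4 itself. PDK2 rose with the block, from 5.39 and 5.39 CPM in shCtrl to 11.3 and 12.5 CPM in shPML (log2 fold change 1.14, SE 0.19, adjusted p = 2.1e-06 from edgeR, and 0.078 without the block). It shares 54.6% of its exon bases with SAMD14 on the opposite strand, which held 3 to 14 reads per library. PDK1, the HIF-induced form, had a log2 fold change of 0.36 and PDK3 of -0.42 with the block, both short of the fold threshold. The opposing phosphatase subunit PDP1 rose with the block, from 63.2 and 68.1 CPM in shCtrl to 147 and 150 CPM in shPML (log2 fold change 1.18, adjusted p = 6.3e-14 from edgeR), while its regulatory subunit PDPR and the complex component PDHX fell, by 0.71 and 0.77 on the log2 scale. Of the 12 genes of pyruvate dehydrogenase and its regulators, 0 were called without the block by edgeR. With p under 0.05 before adjustment, 2 were higher and 2 lower, against 7.8% and 10.1% of all genes. DESeq2 called 2 higher and 2 lower, against 3.49% and 5.44% of all genes. With the block, edgeR also called 2 higher and 2 lower, against 8.57% and 10.5% of all genes.

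Other known inducers of ANGPTL4 were examined by lists of their target genes, with ANGPTL4 itself left out. Of 31 HIF targets tested, edgeR called 0 without the block. With p under 0.05 before adjustment, 7 were higher and 4 lower, against 7.8% and 10.1% of all genes. DESeq2 called 3 higher and 2 lower, against 3.49% and 5.44% of all genes. With the block, edgeR called 5 higher and 3 lower, against 8.57% and 10.5% of all genes. CA12, a membrane carbonic anhydrase, rose from 9.46 and 6.36 CPM in shCtrl to 26.9 and 22.1 CPM in shPML (log2 fold change 1.64 with the block, adjusted p = 5.9e-14 from edgeR), and NDUFA4L2 rose by 0.92. ANKRD37, SLC2A1 (GLUT1) and PFKFB3 fell with the block, by 1.17, 0.75 and 0.68 on the log2 scale. ANKRD37 shares 54.7% of its exon bases with UFSP2 on the opposite strand. The median log2 fold change of these 31 genes was 0.15, with 0.24 within replicate 1 and 0.09 within replicate 2.

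Of 13 glucocorticoid receptor targets tested, edgeR called 0 without the block. With p under 0.05 before adjustment, 3 were higher and 2 lower, against 7.8% and 10.1% of all genes. DESeq2 called 2 higher and 0 lower, against 3.49% and 5.44% of all genes. With the block, edgeR called 2 higher and 2 lower, against 8.57% and 10.5% of all genes. TSC22D3 (GILZ), a classic glucocorticoid response gene, rose from 9.18 and 6.47 CPM in shCtrl to 20.8 and 18.5 CPM in shPML (log2 fold change 1.33 with the block, adjusted p = 2.9e-10 from edgeR). FKBP5, another of the classic genes, fell with the block from 78.0 and 74.5 CPM to 56.5 and 48.1 CPM (log2 fold change -0.55, adjusted p = 0.00011), as did DUSP1, by 0.50. BIRC3, an inhibitor of apoptosis, rose by 0.59 on the log2 scale with the block.

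Of 13 TGF-beta targets tested, edgeR called 0 higher and 1 lower (TAGLN) without the block, against 0.0787% and 0.333% of all genes. It called 3 higher and 2 lower with the block, against 8.57% and 10.5% of all genes. At p under 0.05 before adjustment without the block, edgeR had 4 higher and 2 lower, against 7.8% and 10.1%. DESeq2 without the block called 1 higher and 2 lower, against 3.49% and 5.44%. SMAD7, the feedback inhibitor, rose from 48.1 and 61.7 CPM in shCtrl to 87.9 and 120 CPM in shPML (log2 fold change 0.92 with the block, adjusted p = 7.7e-10 from edgeR). JUNB rose by 0.92 with the block, although its groups overlapped, at 59.2 and 180 CPM in shCtrl and 98.1 and 387 CPM in shPML. TAGLN, a smooth muscle actin-binding protein, was called lower with and without the block, at 159 and 209 CPM in shCtrl and 21.4 and 20.7 CPM in shPML, and it shares 18.4% of its exon bases with PCSK7 on the opposite strand. ID1, a transcriptional inhibitor, fell by 1.49 on the log2 scale with the block. Without ANGPTL4 the median log2 fold changes were 0.25 for the glucocorticoid and 0.23 for the TGF-beta list, beside 0.01 for all genes. The glucocorticoid median was -0.13 within replicate 1 and 0.39 within replicate 2, so its sign differed between the experiments. The TGF-beta median was 0.36 within replicate 1 and 0.33 within replicate 2. In each of these 3 lists, as in the PPAR list, genes were called in both directions with the block, and the lists share control libraries and genes, so they are not compared with each other.

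The genes with profiles most like that of ANGPTL4 over the 4 libraries, by Euclidean distance between mean-centred log2 CPM, were RINL, ACP5, IFITM2, JPH4 and CD33, at distances of 0.72 to 1.17. ACP5, the tartrate-resistant acid phosphatase, was the most abundant of these 5 genes, at 4.51 and 1.53 CPM in shCtrl and at 25.0 and 43.0 CPM in shPML. RINL was at 0.24 and 0.056 CPM in shCtrl and at 1.83 and 3.24 CPM in shPML. CD33, a receptor of myeloid cells, was at 0.037 and 0 CPM in shCtrl and at 0.43 and 1.49 CPM in shPML. No other PPAR target was among these 5 genes, but 20 of the 60 listed were not tested and could not be ranked. The distance also depends on the size of the difference, so nothing is read from this.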

How the data were processed

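RNA from 2 shCtrl and 2 shPML cultures of RCC4 cells was sequenced from a single end as stranded mRNA libraries. The authors trimmed the reads with Trimmomatic 0.39, aligned them with STAR to GRCh38 and deposited raw counts per gene from featureCounts 1.6.4. The release of the annotation and the strand setting are not given in the sources used here, so reads of overlapping genes may be split. The columns without a number were taken as replicate 1. The labels of 2 samples were corrected by the submitters in the GEO record, and the corrected labels were used.

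Counts were filtered with filterByExpr (16516 of 59050 genes), normalized by TMM and tested with edgeR 4.0.16 (quasi-likelihood, Benjamini-Hochberg adjustment over all genes tested) in R 4.3.3, without a block. Following the methods of the study, a call needed a log2 fold change beyond 0.5 and an adjusted p below 0.05. The experiment is a block in a second fit, because the methods describe 2 experiments with independent infections and the deviations of the replicate 1 libraries from their group means correlated at 0.546 across genes. The common dispersion was 0.0813 without and 0.0137 with the block. DESeq2 1.42.0 was an alternative, and an adjusted p it did not give was left out. An exact permutation test of 2 against 2 libraries has 0.333 as its smallest two-sided p and was not used. The fits were also run on counts simulated with a dispersion of 0.0137 and an experiment effect shared by both groups. These settings follow the block fit, so nothing is read from that run about the fits to these data.

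The 10 genes and the 11 lists were chosen from general knowledge with earlier results of these data known. Named were, besides the 10 genes, their family members, PML, up to 3 genes of each list called in each direction with the largest change under the block, and the 5 nearest profiles (prior count 2). CD36, FABP4, G0S2 and LPL, at or near 0 in most libraries, were named after their values were seen. So were HADH, ACAA2, HSD17B10 and SCD. Some listed genes are not reported here. Levels per length are CPM per 1000 bases of exon. Promoters are from RefSeq (GRCh38.p14), other sequence from hg38.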

Additional observations from a re-analysis of the deposited data

How the results depend on the processing

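Of the 9 genes other than ANGPTL4, 0 were called in the fit without a block, 3 with the experiment as a block, 1 with DESeq2, 2 with DESeq2 and the block, and 1 with no filter on low counts. Over all genes the count of 68 became 3150 with the block, 1475 with DESeq2, 2495 with DESeq2 and the block, 0 with RLE normalization and 1837 with no filter. Of the PPAR targets, 1 was called (ANGPTL4, on which the set was selected, so that nothing is read from this call), against 15 with the block, 7 with DESeq2, 13 with DESeq2 and the block, 0 with RLE and 8 with no filter. ANGPTL4 is among the 15, the 7 and the 13. Without it, 10 were higher and 4 lower with the block, against 8.57% and 10.5% of all genes. DESeq2 had 4 and 2, against 3.49% and 5.44%, and with the block 8 and 4, against 6.71% and 8.39%. Of the mitochondrial oxidation genes, 0 were called, against 7 with the block, 2 with DESeq2, 5 with DESeq2 and the block, and 2 with no filter. Leaving out 1 library in turn, in fits in which the lone library is assumed to vary like the other group, gave 0 to 248 genes (248 without shPML replicate 1), 0 to 3 PPAR targets and 0 to 2 oxidation genes. The median log2 fold change of the oxidation genes was 0.0831 and was -0.149 within replicate 2. The sign turned for PPARD without shCtrl replicate 2 (0.0693, in a range from -0.4884), and for PDK4 without shCtrl replicate 1 (-0.0942) and without shPML replicate 2 (-0.8045, in a range up to 2.0097), with 3 to 11 reads per library behind PDK4. The cause of these shifts was not tested. The dropped threshold on the fold change altered no count. Of 81 values of the 9 genes other than ANGPTL4 under the alternatives, 71 kept their direction and side of the threshold, 7 kept their direction and passed it, and 3 changed sign.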
